A study of Mus musculus with 12 samples.

Results

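Transcripts of 9 chemokine receptor genes, Ccr2, Ccr4, Ccr7, Ccr8, Ccr9, Cxcr2, Cxcr3, Cxcr4 and Cxcr6, were followed across 12 RNA sequencing libraries of mouse CD8 T cells. The genes were chosen by name from the 23420 genes listed in the count files, and all 9 passed the filter on low counts. The choice was made with earlier results of these data known. Counts of receptors called are therefore descriptive when set beside the shares of all genes. The libraries form 4 groups of 3. Stimulated KO and stimulated WT cells were cultured for 24 h on plate-bound anti-CD3 with anti-CD28, at 1 µg/ml each, which together stand in for antigen and costimulation. Fresh KO and fresh WT cells are labelled untreated and were taken as not cultured, so that culture and stimulation cannot be told apart. KO mice are labelled OTUB1-DKO and OTUB1-CD4Cre-OT-I, with the Cre recombinase under CD4 control, which acts in developing T cells. Otub1 encodes a deubiquitinase, an enzyme that removes ubiquitin. Mice of every group, the WT controls included, carried the OT-I T cell receptor transgene, which recognises an ovalbumin peptide, on a C57BL/6 background, and were 6 to 8 weeks old. The tissue was spleen. The design names naive CD8 T cells, while a cell type tag on the samples names dendritic cells. Separate animals are not stated for the replicates, and a p-value here reflects only how much these libraries vary. Stimulated KO, fresh KO and fresh WT each held libraries with and without reads of Y-linked genes, and so more than 1 animal. How much of their spread is technical is not known, and that of stimulated WT may be wholly technical.

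Chemokine receptors are membrane proteins of the G protein-coupled class that bind secreted chemokines and steer cells along their gradients, mainly through Gi proteins. On T cells, CCR7 guides entry into lymph nodes and the T cell zones of the spleen, CXCR4 responds to CXCL12 in bone marrow and lymphoid tissue, and CCR9 directs cells to the small intestine and marks stages in the thymus. CXCR3, CCR2 and CXCR6 are known from effector and memory cells that enter inflamed tissue or stay there, CCR4 and CCR8 from activated, skin-homing and regulatory T cells, and CXCR2 from neutrophils.

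Library sizes ran from 15064488 to 25920035 gene counts, and levels are given as each library's counts scaled to a common total of gene counts with TMM (CPM). Otub1 itself was at 16.2, 13.8 and 14.5 CPM in stimulated KO libraries against 85.6, 100.1 and 96.1 CPM in stimulated WT libraries, and at 25.4, 28.8 and 28.6 CPM in fresh KO against 72.6, 70.8 and 45.1 CPM in fresh WT libraries. The 9 CD8 T cell markers, such as Cd8a and Cd3e, summed to between 2621 and 2976 CPM in the stimulated libraries and between 6377 and 6821 CPM in the fresh libraries, and the 8 dendritic cell markers to between 69.9 and 93.2 CPM against 947 and 1429 CPM. Most of the fresh dendritic cell sum was Cd74, H2-Aa and H2-Ab1, at 565, 245.5 and 219 CPM in fresh KO cells. In fresh WT cells these 3 were at 660, 291 and 250 CPM. Clec9a, of the same list, averaged 17.55 CPM in fresh KO and 20.8 CPM in fresh WT cells. None of the CD8 T cell or dendritic cell markers was at 0 in a group. In such bulk samples, fewer cells of a type and less RNA per cell cannot be told apart. Reads of Y-linked genes marked 3 libraries, stimulated KO replicate 3, fresh KO replicate 2 and fresh WT replicate 3. A gene was called where edgeR's quasi-likelihood test gave a Benjamini-Hochberg adjusted p under 0.05 over all 12759 genes tested.

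The promoter windows of a receptor that rose with stimulation, one that fell, and one that rose in fresh KO cells are shown because these genes carry the contrasts described below. Each window runs from 250 bases before to 50 bases after a RefSeq transcription start (GRCm38.p6) and reads 5′ to 3′ on the strand of the gene. Ccr4 is at chr9:114496495-114496794 on the minus strand, Ccr9 at chr9:123766961-123767260 on the plus strand and Cxcr3 at chrX:101734098-101734397 on the minus strand. Capitals mark the letters of a searched motif on either strand.
Ccr4: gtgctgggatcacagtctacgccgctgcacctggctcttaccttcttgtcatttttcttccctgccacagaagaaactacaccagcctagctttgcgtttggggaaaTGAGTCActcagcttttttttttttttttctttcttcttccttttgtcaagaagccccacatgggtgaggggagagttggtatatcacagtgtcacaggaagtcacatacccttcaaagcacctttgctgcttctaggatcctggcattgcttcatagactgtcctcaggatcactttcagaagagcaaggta
Ccr9: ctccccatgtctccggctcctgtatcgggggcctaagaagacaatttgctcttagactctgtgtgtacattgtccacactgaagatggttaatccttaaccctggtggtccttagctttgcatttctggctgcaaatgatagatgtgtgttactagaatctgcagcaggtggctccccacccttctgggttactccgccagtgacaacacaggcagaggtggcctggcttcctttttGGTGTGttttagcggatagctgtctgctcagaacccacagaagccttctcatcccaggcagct
Cxcr3: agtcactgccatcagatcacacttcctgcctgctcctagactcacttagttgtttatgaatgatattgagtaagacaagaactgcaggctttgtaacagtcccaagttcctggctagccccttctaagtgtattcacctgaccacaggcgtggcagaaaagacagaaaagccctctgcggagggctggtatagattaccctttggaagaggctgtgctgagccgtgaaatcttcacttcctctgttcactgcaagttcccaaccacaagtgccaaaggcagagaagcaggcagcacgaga
The motifs searched were GGTGTG for T-box factors, CCACACC for KLF factors, GTAAACA for FOXO factors and TGANTCA for AP-1, and the KLF letters contain the reverse complement of the T-box letters. Among the 8 receptor genes with a window in the RefSeq table, Ccr4 held the AP-1 letters, starting 143 bases before the transcription start, and Ccr9 held the T-box letters, starting 13 bases before it. Of all 32851 windows in the table, 7.81% held the AP-1 letters and 19% the T-box letters. The KLF and FOXO letters, present in 7.58% and 3.65% of all windows, were in none of the 8. A match describes the letters only, and the window of Cxcr3 held none of the 4 motifs.

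The first question was how 24 h of stimulation moved the receptors in each genotype. Ccr9 and Cxcr4 fell to a small fraction of their fresh level, Cxcr6, Ccr2 and Cxcr3 fell less, and Ccr4, Ccr7 and Ccr8 rose. The directions were the same in both genotypes. In KO cells 3 of the 9 receptors rose and 5 fell, in a background where 83.9% of all genes tested were called, 41.7% higher and 42.2% lower. Groups that did not overlap were found for the same 3 and 5 receptors in KO, against 42% of all genes higher, 42.6% lower and 84.6% in either direction. In WT cells 3 rose and 5 fell, where 82.3% of all genes were called, 40.8% higher and 41.4% lower. Here too the groups of 3 higher and 5 lower receptors did not overlap, against 41.8% of all genes higher, 42.2% lower and 84.1% in either direction. A call from stimulation is therefore near the background, and the size of the change says more. The median log2 fold change of the receptors was −1.64 in KO and −0.90 in WT, against −0.02 and −0.03 over all genes tested.

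Among the homing receptors of resting T cells, Cxcr4 (chromosome 1, 128588199 to 128592293) lost most of its transcript. It was at 7.54, 11.8 and 7.31 CPM in stimulated KO libraries and 6.71, 6.98 and 6.44 CPM in stimulated WT libraries, against 439, 387 and 399 CPM in fresh KO and 443, 387 and 299 CPM in fresh WT libraries. All stimulated libraries lay far below all fresh ones. The level was 46.6-fold lower after stimulation in KO cells (log2 fold change −5.54, SE 0.16, edgeR adjusted p = 3.84e-14) and 56.1-fold lower in WT cells (log2 fold change −5.81, SE 0.17, edgeR adjusted p = 4.32e-14). The stimulated KO libraries were all above the stimulated WT libraries, but the difference was not called (edgeR adjusted p = 0.267).

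Ccr9 (chromosome 9, 123678439 to 123784330) fell as far. Its counts gave 2.21, 3.35 and 1.94 CPM in stimulated KO libraries and 5.41, 4.05 and 3.32 CPM in stimulated WT libraries, against 153, 139 and 158 CPM in fresh KO and 176, 208 and 184 CPM in fresh WT libraries. The fresh WT libraries were all above the fresh KO libraries, and the stimulated groups met at their edges. Stimulated cells were 61.3-fold lower than fresh cells in KO (log2 fold change −5.94, SE 0.14, edgeR adjusted p = 5.92e-15) and 44.9-fold lower in WT (log2 fold change −5.49, SE 0.13, edgeR adjusted p = 8.4e-15). In the annotation, exons of Ccr9 share 1932 bases with AC165425.1 on the opposite strand and 269 bases with Gm17200 on its own strand, so that counts of Ccr9 are uncertain to the extent that reads there were set aside or shared. Plasmacytoid dendritic cells also carry CCR9. Of their 5 other markers, Siglech, a receptor that defines them, was at 0.0523 ± 0.0906 CPM in stimulated KO and 0.107 ± 0.0154 CPM in stimulated WT cells, against 6.74 ± 2.45 CPM in fresh KO and 8.57 ± 0.844 CPM in fresh WT cells (mean ± SD, n = 3). The 5 markers together were between 60.6 and 74.7 CPM in stimulated KO and between 41.1 and 48.3 CPM in stimulated WT, against 59.7 to 70.4 CPM in fresh KO and 47.5 to 56.6 CPM in fresh WT, most of it from Runx2, which T cells also express. With stimulation 2 of the 5 were called higher and 3 lower in KO, and 1 higher and 3 lower in WT. Cox6a2 went up, at 4.81 CPM in stimulated KO against 0.549 CPM in fresh KO cells. In WT it was at 8.18 CPM in stimulated against 0.576 CPM in fresh cells. None of the 5 was at 0 in a whole group, but Siglech had no read in stimulated KO replicates 1 and 3. The part of these cells in the levels of Ccr9 was not tested.

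Ccr7 (chromosome 11, 99144196 to 99155077) went the other way. It was at 741, 966 and 828 CPM in stimulated KO libraries and 572, 703 and 619 CPM in stimulated WT libraries, against 411, 564 and 394 CPM in fresh KO and 506, 446 and 525 CPM in fresh WT libraries. Every stimulated library was above every fresh library, and the fresh groups overlapped. The rise was 1.85-fold in KO (log2 fold change 0.89, SE 0.13, edgeR adjusted p = 7.2e-06) and 1.28-fold in WT (log2 fold change 0.36, SE 0.12, edgeR adjusted p = 0.0148). The call in WT was lost without stimulated WT replicate 2 or fresh WT replicate 2 (edgeR adjusted p = 0.0719 and 0.0701).

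**Figure D1:**
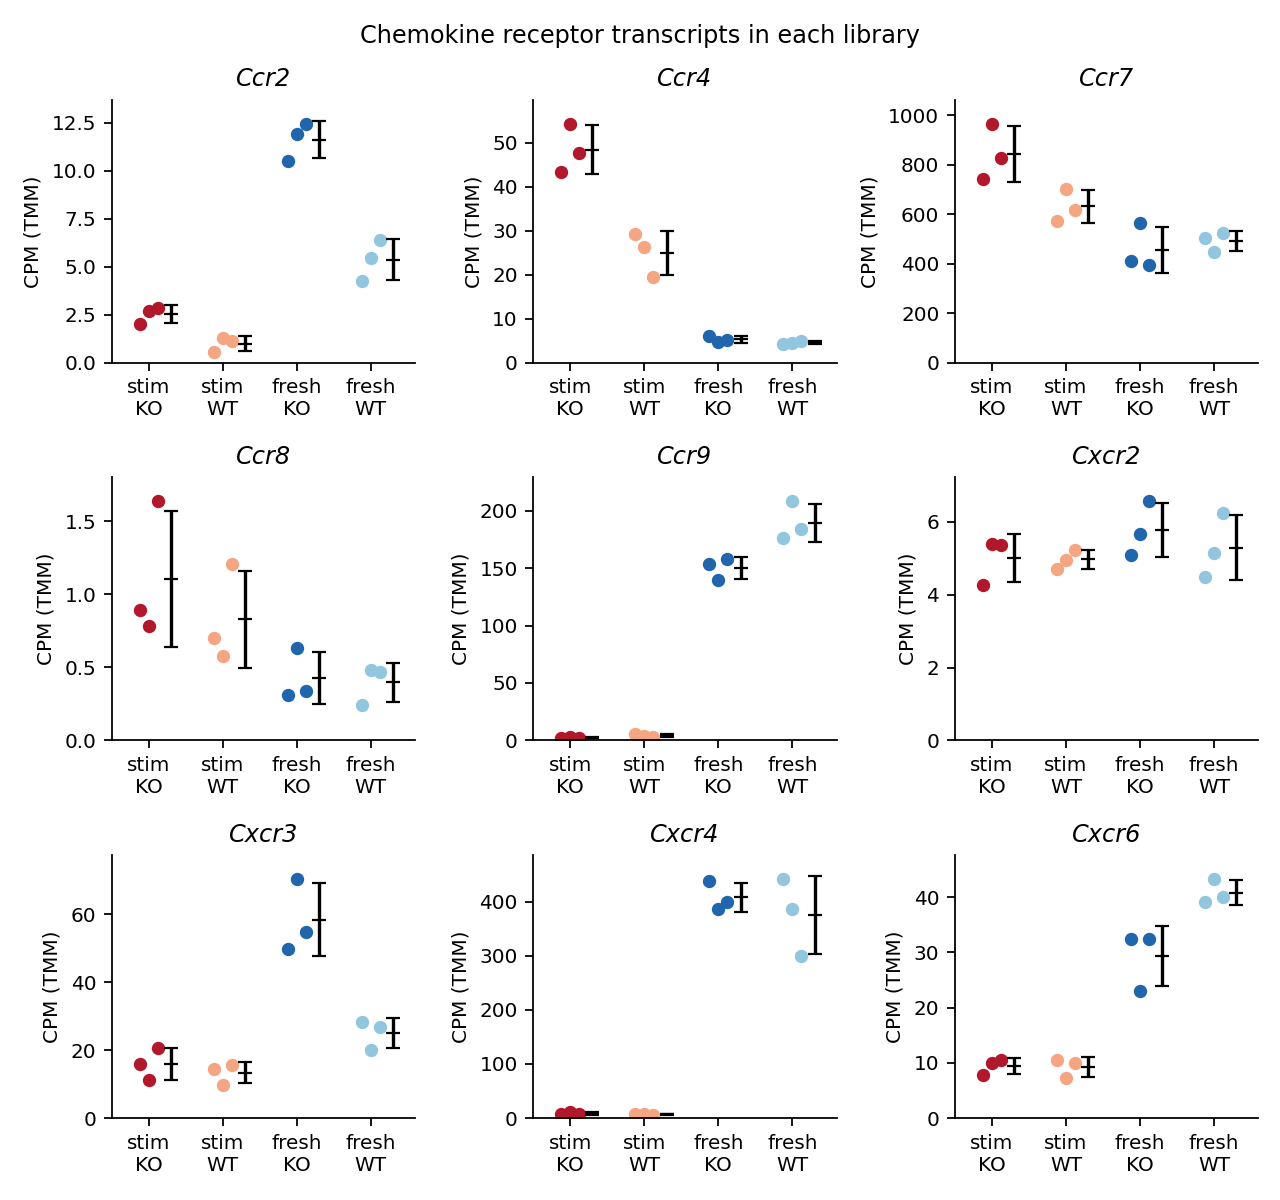
Level of each receptor in CPM with TMM scaling (y axis, from 0, a scale per panel) in the stimulated KO, stimulated WT, fresh KO and fresh WT libraries. Points are libraries and bars the mean with SD (n = 3); Ccr9 and Cxcr4 nearly vanish in the stimulated panels, at up to 5.41 and 11.8 CPM, while Ccr4 is highest in stimulated KO.

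Of the receptors known from activated and skin-homing T cells, Ccr4 (chromosome 9, 114490316 to 114504916), which binds CCL17 and CCL22, rose most. It was at 43.3, 54.4 and 47.8 CPM in stimulated KO libraries and 29.2, 26.2 and 19.5 CPM in stimulated WT libraries, against 6.18, 4.71 and 5.13 CPM in fresh KO and 4.37, 4.45 and 5.06 CPM in fresh WT libraries. The stimulated KO libraries stood above all others, the stimulated WT libraries came next, and the fresh groups overlapped. Stimulation raised it 9.1-fold in KO (log2 fold change 3.19, SE 0.15, edgeR adjusted p = 9.91e-12) and 5.4-fold in WT (log2 fold change 2.43, SE 0.16, edgeR adjusted p = 6.35e-10).

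Ccr8 (chromosome 9, 120092114 to 120094906), the receptor for CCL1, was the scarcest of the 9 in fresh cells and rests on few reads. Its raw counts were 23, 15 and 38 in stimulated KO libraries and 14, 12 and 29 in stimulated WT libraries, against 6, 14 and 7 in fresh KO and 4, 10 and 7 in fresh WT libraries. In each genotype the stimulated libraries were above the fresh ones in CPM, with a rise of 2.55-fold in KO (log2 fold change 1.35, SE 0.41, edgeR adjusted p = 0.007) and of 2.08-fold in WT (log2 fold change 1.06, SE 0.46, edgeR adjusted p = 0.0443). The KO call was lost without stimulated KO replicate 3 (edgeR adjusted p = 0.0541). The WT call was lost with DESeq2, with limma-voom, and without stimulated WT replicate 3 or any one fresh WT library (adjusted p from 0.0566 to 0.235); without stimulated WT replicate 3 the log2 fold change was 0.67. The 5 markers of CD4 and regulatory T cells, among which CCR4 and CCR8 are common, summed to between 42.2 and 46.8 CPM in stimulated KO and between 35.6 and 47.3 CPM in stimulated WT libraries, against 26.8 to 30.3 CPM in fresh KO and 30.5 to 37.5 CPM in fresh WT libraries. With stimulation 2 of the 5 rose and 2 fell in each genotype. Most of the stimulated sum was Ikzf4, at 33.1 CPM in stimulated KO and 27.5 CPM in stimulated WT, against 3.01 CPM in fresh KO and 2.81 CPM in fresh WT cells. Cd4 fell, at 0.634 CPM in stimulated KO and 0.871 CPM in stimulated WT, against 8.53 CPM in fresh KO and 9.34 CPM in fresh WT cells. None of the 5 was at 0 in a group, and their part in the levels of Ccr4 and Ccr8 was not tested.

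The receptors of effector and memory cells fell. Cxcr3 (chromosome X, 101731535 to 101734269), which binds CXCL9, CXCL10 and CXCL11, was at 16.0, 11.3 and 20.6 CPM in stimulated KO libraries and 14.5, 9.78 and 15.6 CPM in stimulated WT libraries, against 49.9, 70.5 and 54.8 CPM in fresh KO and 28.3, 20.0 and 26.8 CPM in fresh WT libraries. Fresh KO libraries stood above all others, and the stimulated groups overlapped. The fall was 3.64-fold in KO (log2 fold change −1.86, SE 0.20, edgeR adjusted p = 3.01e-07) and 1.87-fold in WT (log2 fold change −0.90, SE 0.21, edgeR adjusted p = 0.000981).

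Ccr2 (chromosome 9, 124101950 to 124113557), the CCL2 receptor that lets monocytes and memory T cells enter inflamed tissue, was at 2.01, 2.72 and 2.88 CPM in stimulated KO libraries and 0.551, 1.30 and 1.12 CPM in stimulated WT libraries, against 10.5, 11.9 and 12.5 CPM in fresh KO and 4.25, 5.47 and 6.39 CPM in fresh WT libraries. No group overlapped with another, in the order fresh KO, fresh WT, stimulated KO, stimulated WT from high to low. It fell 4.61-fold with stimulation in KO (log2 fold change −2.20, SE 0.19, edgeR adjusted p = 2.8e-08) and 5.33-fold in WT (log2 fold change −2.42, SE 0.24, edgeR adjusted p = 1.38e-07). The 7 monocyte and macrophage markers summed to between 3.03 and 3.53 CPM in stimulated KO and between 3.46 and 4.74 CPM in stimulated WT libraries, against 33.4 to 57.6 CPM in fresh KO and 42.0 to 66.8 CPM in fresh WT libraries, with none at 0 in a group, and 6 of 6 tested fell in both genotypes. Their part in the fall of Ccr2 was not tested.

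Cxcr6 (chromosome 9, 123806475 to 123811760), the CXCL16 receptor of tissue-resident T cells, was at 7.74, 9.94 and 10.5 CPM in stimulated KO libraries and 10.5, 7.22 and 10.1 CPM in stimulated WT libraries, against 32.4, 23.1 and 32.4 CPM in fresh KO and 39.2, 43.3 and 40.0 CPM in fresh WT libraries. The stimulated groups overlapped, and fresh WT lay above fresh KO in every library. The fall was 3.12-fold in KO (log2 fold change −1.64, SE 0.15, edgeR adjusted p = 5.49e-08) and 4.41-fold in WT (log2 fold change −2.14, SE 0.15, edgeR adjusted p = 2.4e-09). All 1931 exon bases of Cxcr6 lie inside the span of Fyco1 on the opposite strand without sharing exon bases, and the strand setting of the counting is not given in the sources used here. Fyco1 was at 28.9 ± 0.816 CPM in stimulated KO and 32.6 ± 3.08 CPM in stimulated WT cells, against 151 ± 9.44 CPM in fresh KO and 142 ± 9.66 CPM in fresh WT cells (mean ± SD, n = 3), so that it moved with Cxcr6 under stimulation. Its part in the counts of Cxcr6 was not tested.

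Cxcr2 (chromosome 1, 74153989 to 74161246), which binds CXCL1 and related chemokines, was not called in any comparison of the edgeR fit. It was at 4.26, 5.39 and 5.38 CPM in stimulated KO libraries and 4.71, 4.96 and 5.24 CPM in stimulated WT libraries, against 5.09, 5.66 and 6.57 CPM in fresh KO and 4.49, 5.13 and 6.26 CPM in fresh WT libraries. All 4 groups overlapped. The log2 fold change with stimulation was −0.21 (SE 0.15, edgeR adjusted p = 0.189) in KO and −0.08 (SE 0.15, edgeR adjusted p = 0.61) in WT. The 7 summed neutrophil markers were between 0.860 and 0.941 CPM in stimulated KO and between 0.722 and 1.04 CPM in stimulated WT libraries, against 7.42 to 14.6 CPM in fresh KO and 7.39 to 8.57 CPM in fresh WT libraries. Retnlg, one of them, had no read in either stimulated group. Their part in the counts of Cxcr2 was not tested.

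**Figure D2:**
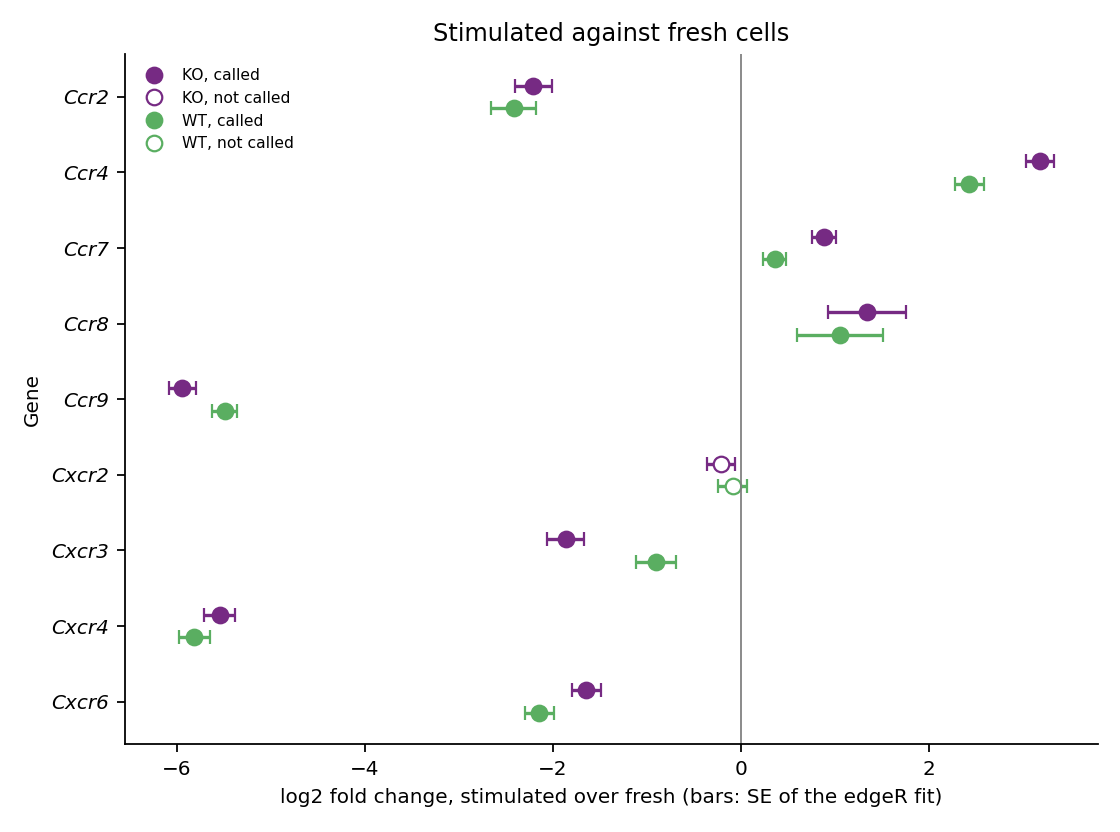
Log2 fold change of stimulated over fresh cells (x axis) for each receptor (y axis) in KO and WT, with bars for the SE of the edgeR fit and filled points for called genes. Ccr9 and Cxcr4 lie at −5.94 and −5.54 in KO, Ccr4 at 3.19, and Cxcr2 has open points near 0.

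Per exon length, a scale on which genes can be compared, Ccr7 was the leading receptor in every group, at 427 ± 57.3 CPM per kb in stimulated KO and 319 ± 33.4 CPM per kb in stimulated WT, against 231 ± 47.4 CPM per kb in fresh KO and 249 ± 20.7 CPM per kb in fresh WT cells. In fresh cells Cxcr4 came next, at 226 ± 15.1 CPM per kb in KO and 209 ± 40.0 CPM per kb in WT, and its range overlapped with that of Ccr7. After stimulation the runner-up was Ccr4, at 17.3 ± 1.99 CPM per kb in KO and 8.90 ± 1.77 CPM per kb in WT, far below Ccr7. Of the summed CPM of the 9 genes, Ccr7 held between 89.4% and 90.7% in stimulated KO and between 88.8% and 92% in stimulated WT libraries, against 37.1% to 46.8% in fresh KO and 39.8% to 48.0% in fresh WT libraries.

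Further down the order of levels per kb, fresh KO cells had Cxcr3 and Ccr9 with overlapping ranges, then Cxcr6 and Ccr2, then Ccr4 and Cxcr2 with overlapping ranges, and Ccr8 last. In fresh WT cells the order was Ccr9, Cxcr6 and Cxcr3 without overlap, then Ccr2, Cxcr2 and Ccr4, where neighbours overlapped, and Ccr8 last. Cxcr3 was thus the third in fresh KO and the fifth in fresh WT cells, at 33.7 ± 6.21 against 14.5 ± 2.55 CPM per kb. In stimulated KO cells Cxcr4 overlapped with both Cxcr6 and Cxcr3, Ccr8 overlapped with Ccr2, and Ccr9 was last. In stimulated WT cells Ccr4 overlapped with Cxcr3, Cxcr6 with Cxcr4 and Ccr9 with Ccr8, and Ccr2 was last. The places of Ccr9 and Ccr2 depend on the exons counted. Their lengths here were 5265 and 2999 bases, while all annotated exons cover 10260 and 6760 bases. The longer lengths would lower both levels per kb and can change the order, that of Ccr9 and Cxcr6 in fresh WT cells included.

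**Figure D3:**
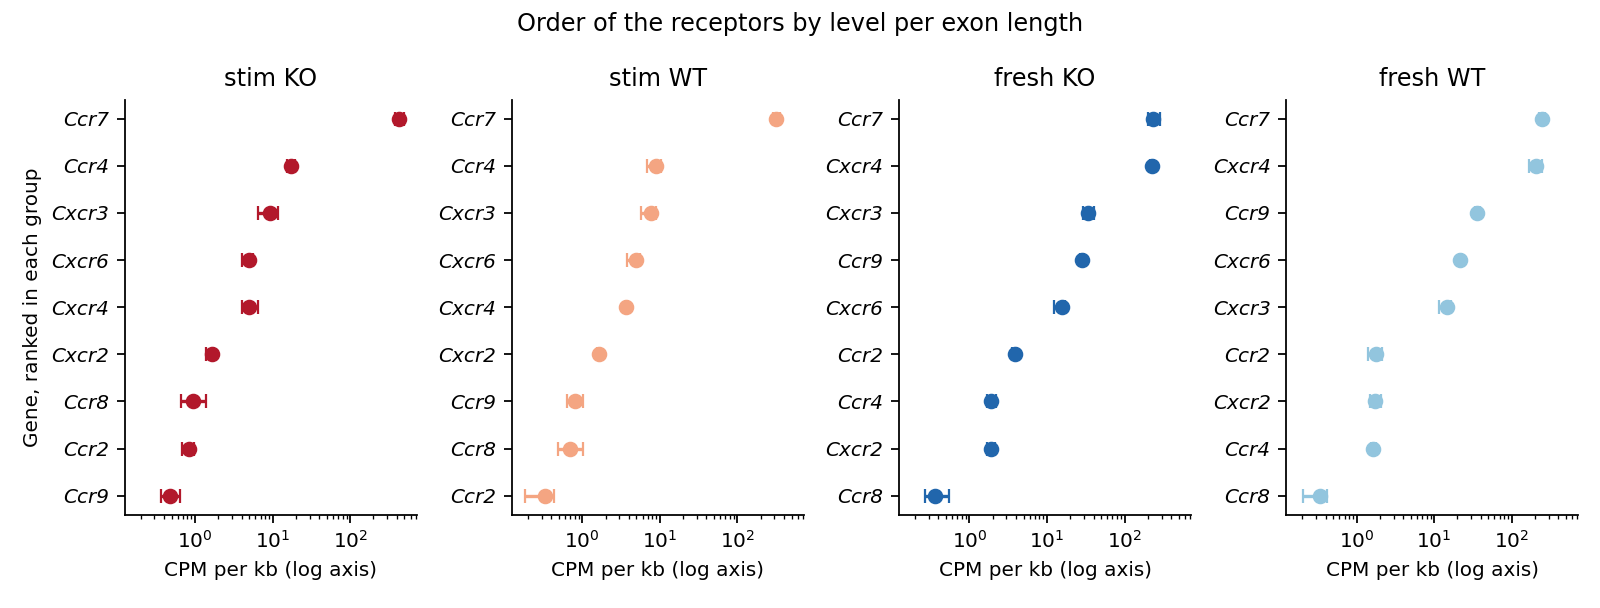
Mean level per kb of exon (x axis, log scale) of the receptors, ranked in each group (y axis), with bars from the lowest to the highest of 3 libraries. Ccr7 leads all panels, at 427 CPM per kb in stimulated KO and 249 CPM per kb in fresh WT, and Cxcr4 stands beside it in fresh cells and in the middle of the order in stimulated cells.

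Stimulated KO cells were then set against stimulated WT cells, to see how the receptors of activated cells change without Otub1. Ccr2, Ccr4 and Ccr7 were higher in the knockout and Ccr9 was lower. These 3 higher and 1 lower calls among 9 receptors compare with 9.3% of all genes called, 5.08% higher and 4.22% lower. Groups did not overlap for 4 receptors, all higher in KO, against 14.3% of all genes higher, 13.1% lower and 27.4% in either direction. The median log2 fold change of the receptors was 0.38, against −0.005 over all genes tested.

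Ccr4 averaged 48.5 ± 5.58 CPM in stimulated KO and 25.0 ± 4.98 CPM in stimulated WT cells (SD, n = 3 each), 1.94-fold higher with every KO library above every WT library (log2 fold change 0.96, SE 0.13, edgeR adjusted p = 0.000411). Ccr2 averaged 2.54 ± 0.463 CPM in stimulated KO and 0.991 ± 0.391 CPM in stimulated WT cells, 2.51-fold higher, with no overlap (log2 fold change 1.33, SE 0.26, edgeR adjusted p = 0.00526). Both calls held in each alternative and without any one library, and the counts behind Ccr2 were 52, 52 and 67 in stimulated KO libraries against 11, 27 and 27 in stimulated WT libraries.

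Ccr7 averaged 845 ± 113 CPM in stimulated KO and 632 ± 66.1 CPM in stimulated WT cells, 1.34-fold higher without overlap (log2 fold change 0.42, SE 0.12, edgeR adjusted p = 0.0465). That call sat at the threshold. It was lost with DESeq2, with DESeq2 size factors in edgeR, with sex as a covariate, and without stimulated KO replicate 2 or 3, stimulated WT replicate 1 or 3, fresh KO replicate 1 or any one fresh WT library (adjusted p from 0.0505 to 0.165). Ccr9 averaged 2.50 ± 0.749 CPM in stimulated KO and 4.26 ± 1.06 CPM in stimulated WT cells, where the groups overlapped (log2 fold change −0.78, SE 0.21, edgeR adjusted p = 0.0267). Its call was lost with limma-voom, with only the compared groups in the fit, without the Y-linked libraries, and without stimulated KO replicate 1 or 3 or stimulated WT replicate 1 or 2 (adjusted p from 0.0587 to 0.117).

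The other 5 receptors were not called between the stimulated groups. The log2 fold change was 0.38 (SE 0.20) for Cxcr4, 0.40 (SE 0.37) for Ccr8, 0.27 (SE 0.21) for Cxcr3, 0.01 (SE 0.16) for Cxcr6 and 0.00 (SE 0.15) for Cxcr2. The CD8 T cell markers summed to between 2621 and 2719 CPM in stimulated KO against 2849 to 2976 CPM in stimulated WT libraries, with 1 of 9 called higher and 4 lower, and the part of this shift in the receptor differences was not tested.

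In fresh cells the comparison of KO with WT asked what Otub1 loss does before activation. Cxcr3 and Ccr2 were higher in the knockout, and no receptor was called lower. These 2 higher calls among 9 compare with 1.2% of all genes called, 0.98% higher and 0.219% lower. Groups did not overlap for 2 receptors higher and 2 lower, against 10.6% of all genes higher, 9.4% lower and 20% in either direction. The median log2 fold change of the receptors was 0.12, against 0.00 over all genes tested.

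Cxcr3 averaged 58.4 ± 10.8 CPM in fresh KO against 25.0 ± 4.41 CPM in fresh WT cells (SD, n = 3 each), 2.35-fold higher (log2 fold change 1.23, SE 0.20, edgeR adjusted p = 0.00745). As a gene of the X chromosome it was also compared without the Y-linked libraries, where the log2 fold change was 1.13 (SE 0.19, edgeR adjusted p = 0.0188). Ccr2 averaged 11.6 ± 0.987 CPM in fresh KO against 5.37 ± 1.07 CPM in fresh WT cells, 2.17-fold higher (log2 fold change 1.12, SE 0.18, edgeR adjusted p = 0.00904). Without fresh WT replicate 2 neither was called, at an edgeR adjusted p of 0.0516 for each, and the log2 fold changes were 1.09 for Cxcr3 and 1.14 for Ccr2.

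Cxcr6 and Ccr9 pointed down in fresh KO cells. Cxcr6 averaged 29.3 ± 5.40 CPM in fresh KO against 40.9 ± 2.18 CPM in fresh WT cells, and Ccr9 averaged 150.0 ± 9.46 CPM in fresh KO against 189 ± 16.8 CPM in fresh WT cells, with no overlap in either gene. Neither was called (log2 fold change −0.48, SE 0.14, edgeR adjusted p = 0.129 for Cxcr6; −0.34, SE 0.10, edgeR adjusted p = 0.112 for Ccr9). Ccr9 passed with DESeq2 (adjusted p = 0.0271), limma-voom, no filter on low counts, and only the compared groups in the fit, and Cxcr6 with DESeq2 (adjusted p = 0.0391). The remaining 5 had log2 fold changes of 0.21 (SE 0.18) for Ccr4, 0.12 (SE 0.12) for Cxcr4, 0.13 (SE 0.15) for Cxcr2, −0.11 (SE 0.12) for Ccr7 and 0.10 (SE 0.52) for Ccr8, and all overlapped.

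Markers of other cells that carry Cxcr3 or Ccr2 were set beside these values. The 6 NK cell markers summed to between 91.0 and 122 CPM in fresh KO against 59.1 to 74.1 CPM in fresh WT libraries, nearly all from Eomes, which CD8 T cells also express and which was the 1 called higher of 4 tested, with none called lower. Of the others, Klra9 was at 1.88 ± 0.977 CPM in fresh KO against 1.36 ± 0.280 CPM in fresh WT cells, Ncr1 was at 0.457 ± 0.251 CPM in fresh KO against 0.991 ± 0.388 CPM in fresh WT cells, Klrb1c was at 1.82 ± 0.101 CPM in fresh KO against 3.15 ± 0.289 CPM in fresh WT cells, and Klra4 and Klra8 had no read in any library. The monocyte and macrophage sums of fresh KO and fresh WT libraries overlapped, as given above, with none of 6 tested markers called. The part of these markers in the rise of Cxcr3 and Ccr2 was not tested.

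**Figure D4:**
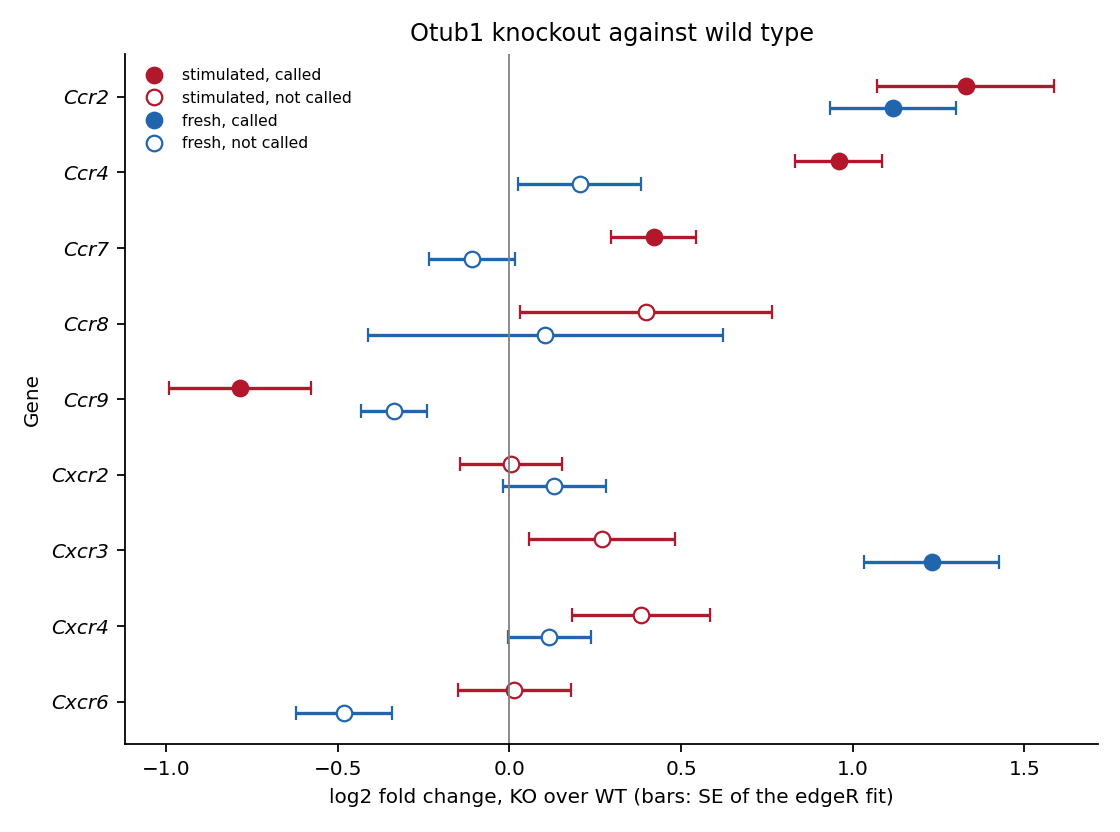
Log2 fold change of KO over WT (x axis) for each receptor (y axis) in stimulated and in fresh cells, with bars for the SE of the edgeR fit and filled points for called genes. Ccr2 is filled in both states, at 1.33 and 1.12, Ccr4 at 0.96 in stimulated cells, and Cxcr3 at 1.23 in fresh cells.

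Whether the knockout effect differed between states was tested as the interaction of genotype and stimulation. No receptor was called in edgeR, where 2.26% of all genes were, 0.698% positive and 1.56% negative. At an unadjusted edgeR p under 0.05 there were 3 positive receptors, Ccr4, Ccr7 and Cxcr6, and 1 negative, Cxcr3. Those shares of all genes are at the adjusted threshold and cannot be set beside this count. DESeq2 called 1 and limma-voom 0. The KO effect was larger in stimulated cells for Ccr4 by a log2 difference of 0.75 (SE 0.22, edgeR adjusted p = 0.0887) and for Ccr7 by 0.53 (SE 0.18, edgeR adjusted p = 0.139), and smaller for Cxcr3, with a difference of −0.96 (SE 0.29, edgeR adjusted p = 0.0981). Ccr4 passed with DESeq2, without the filter on low counts and without stimulated WT replicate 1 (adjusted p = 0.0268, 0.0393 and 0.0414). Cxcr3 passed without the filter, with sex as a covariate and without stimulated KO replicate 3 (adjusted p = 0.025, 0.0239 and 0.0445), and Ccr7 without fresh KO replicate 2 (adjusted p = 0.02). For Ccr2, called in both states, the difference was 0.21 (SE 0.32, edgeR adjusted p = 0.807).

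Of 15 other chemokine receptors, 12 passed the filter on low counts. Under stimulation, 10 of the 12 were called lower in KO cells and 11 in WT cells. Of all genes tested, 42.2% were called lower in KO and 41.4% in WT, and 83.9% and 82.3% in either direction. Xcr1, a receptor of cross-presenting dendritic cells, averaged 1.90 CPM in stimulated KO and 1.21 CPM in stimulated WT, against 16.3 CPM in fresh KO and 19.2 CPM in fresh WT cells. Cx3cr1, the fractalkine receptor of monocytes and effector cells, averaged 0.448 CPM in stimulated KO and 0.316 CPM in stimulated WT, against 11.2 CPM in fresh KO and 9.83 CPM in fresh WT cells. Ccr10 had 0 counts in stimulated KO against 38 in fresh KO libraries, and with a floor of 3 counts over the group was at least 13.9-fold lower. Cxcr7, a scavenger of CXCL12 now named Ackr3, fell in both genotypes (−2.92 in KO, edgeR adjusted p = 1.6e-05, and −2.10 in WT, edgeR adjusted p = 0.000124, on the log2 scale). So did Cxcr5, a receptor of B cells and follicular T cells (−1.10 in KO, edgeR adjusted p = 1.65e-05, and −1.39 in WT, edgeR adjusted p = 1.84e-06), and Ccr6, a receptor of B cells and mucosal T cells (−1.82 in KO, edgeR adjusted p = 0.000107, and −2.38 in WT, edgeR adjusted p = 5.36e-06). The 6 B cell markers summed to between 19.9 and 26.4 CPM in stimulated KO and between 23.9 and 28.8 CPM in stimulated WT libraries, against 116 to 172 CPM in fresh KO and 117 to 134 CPM in fresh WT libraries. The summed dendritic cell and monocyte markers were lower too, as given above, and the dendritic cell list includes Xcr1 itself. Of the 8 dendritic cell markers, 7 were called lower in each genotype and 1 higher in KO. The part of these cells in the falls was not tested.

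The ligands of the 9 receptors were mostly at trace level, and 6 of 21 passed the filter. None was called between genotypes in stimulated or fresh cells with edgeR. At an unadjusted edgeR p under 0.05, 2 were lower in fresh KO and none in stimulated KO. The share of all genes at that unadjusted threshold is not given here. DESeq2 and limma-voom called 0 in either state. Under stimulation 3 rose and 2 fell in each genotype, where 83.9% of all genes were called in KO and 82.3% in WT. Ccl1, the CCR8 ligand, had 515 counts in stimulated KO against 2 in fresh KO libraries, a ratio of 235 (95% exact interval 64.7 to 1945), and 398 in stimulated WT against 3 in fresh WT libraries, a ratio of 107 (36.3 to 520). These intervals cover counting error only. Ccl22, a CCR4 ligand, averaged 23.5 CPM in stimulated KO and 20.5 CPM in stimulated WT, against 6.94 CPM in fresh KO and 8.87 CPM in fresh WT cells. Cxcl16, the CXCR6 ligand, fell (log2 fold change −1.61 in KO and −1.86 in WT, edgeR adjusted p = 9.74e-07 and 1.99e-07), as did Cxcl9, a CXCR3 ligand (log2 fold change −2.24 in KO and −2.55 in WT, edgeR adjusted p = 5.29e-06 and 7.13e-07). Cxcl10, another CXCR3 ligand, rose (log2 fold change 1.045 in KO and 1.224 in WT, edgeR adjusted p = 5.05e-05 and 1.41e-05).

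Genes that carry the receptor signal or end it numbered 31, all of which passed the filter. In stimulated KO against stimulated WT 4 were higher and 3 lower, against 9.3% of all genes called. In fresh KO against fresh WT 1 was higher, against 1.2% of all genes called. Pik3r5, the regulatory subunit of the PI3K that Gi-coupled receptors activate, averaged 136 CPM in stimulated KO against 101 CPM in stimulated WT cells (log2 fold change 0.43, SE 0.07, edgeR adjusted p = 0.00117). Elmo1, partner of the Rac activator Dock2, was higher (log2 fold change 0.26, edgeR adjusted p = 0.00575), while Dock2 itself and the phospholipase gene Plcb2 were lower (−0.22 for Dock2, edgeR adjusted p = 0.00759, and −0.27 for Plcb2, edgeR adjusted p = 0.00347, on the log2 scale). In fresh cells Rgs3, a GTPase-activating protein that shortens Gi signals, was higher, at 186 CPM in KO against 142 CPM in WT (log2 fold change 0.39, SE 0.07, edgeR adjusted p = 0.0159). The Rgs3 call was lost without fresh WT replicate 2 or 3 and without the Y-linked libraries (edgeR adjusted p from 0.0527 to 0.0775).

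Stimulation moved most of these 31 genes, 8 up and 20 down in KO and 7 up and 22 down in WT. Of all genes tested, 41.7% were called higher and 42.2% lower in KO, and 40.8% and 41.4% in WT. The median log2 fold change of the 31 was −0.72 in KO and −0.82 in WT, against −0.02 and −0.03 over all genes tested. Rgs16, an inhibitor of chemokine receptor signalling, averaged 288 CPM in stimulated KO and 352 CPM in stimulated WT, against 2.29 CPM in fresh KO and 2.36 CPM in fresh WT cells. Rgs10, of the same family, averaged 17.0 CPM in stimulated KO and 18.9 CPM in stimulated WT, against 145 CPM in fresh KO and 148 CPM in fresh WT cells. Arrb2, an arrestin that uncouples receptors, fell by 1.84 on the log2 scale in KO and by 1.86 in WT (edgeR adjusted p = 7.5e-15 and 9.25e-15). Arrb1, the other arrestin of the list, fell by 1.455 in WT (edgeR adjusted p = 0.000165). In KO its change of −0.37 was not called (edgeR adjusted p = 0.199). Arrb1 was higher in stimulated KO than in stimulated WT cells (log2 fold change 1.11, SE 0.28, edgeR adjusted p = 0.0201).

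Genes with the most like pattern over the 12 libraries were found by the root mean square difference of centred log2 CPM. For Ccr9 these were S1pr1, the receptor for lymphoid egress, and Klf2, the transcription factor, with differences of 0.23 and 0.34, where the SD of Ccr9 itself was 2.99. S1pr1 averaged 6.91 CPM in stimulated KO and 11.5 CPM in stimulated WT, against 517 CPM in fresh KO and 534 CPM in fresh WT cells. Ccr4 was closest to Nt5dc2 and Bhlhe40, with a difference of 0.22 each. Cxcr3 was closest to Il18rap, a subunit of the IL-18 receptor, and Ctla2a, with differences of 0.20 and 0.29, and Ccr2 to Gpr97 and Abcb1a, with 0.30 and 0.43. Ccr7 was closest to Alkbh5 and March9 (0.13 and 0.14), Cxcr6 to Slc25a27 and Usp28 (0.17 and 0.21), Cxcr4 to Gzma and Oas2 (0.32 and 0.36), and Ccr8 to Lrig1 and Tmem126a (0.30 and 0.33). Cxcr2, which varied least, was closest to Gskip and Trappc1 (0.12 and 0.13).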

How the data were processed

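RNA was sequenced from 12 libraries. The deposited values are raw counts per gene symbol, which the authors made from reads. TopHat, TopHat2, HTSeq, DESeq2 and the build mm10 are named per the submitters' processing notes, while the versions, annotation and strand setting were not given. Lines for unassigned reads, 5.22% to 6.43% of each file, were left out. Gene counts were filtered by group (filterByExpr) and scaled by TMM (factors 0.988 to 1.01). They were fitted in 1 model with a coefficient per group (8 residual degrees of freedom), using edgeR 4.0.16 in R 4.3.3. Benjamini-Hochberg adjustment ran over 12759 genes. The SE of a log2 fold change is its absolute value divided by the square root of the F statistic of the edgeR test. The procedure was tested on simulated data with 200 genes changed in KO libraries and no effect of stimulation. It was thus not tried under changes as wide as those with stimulation here. Alternatives were DESeq2 1.42.0, limma-voom 3.58.1, DESeq2 size factors, no filter, only the compared groups, sex by Y-linked reads (over 5 CPM) as a covariate, leaving those libraries out, and leaving out each library. CPM per kb used exon lengths of GENCODE transcripts matched to RefSeq, and gene positions are GENCODE's on GRCm38. Genes named beside the receptors were those called in a comparison, at most 4 per list by adjusted p, and the 2 of most like pattern per receptor. Cxcl10 was named as well, as the other CXCR3 ligand that passed the filter, and Arrb1 as the other arrestin of its list. The receptors and lists were chosen with earlier results of these data known. A result on 1 further gene is not reported here.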

Additional observations from a re-analysis of the deposited data

Results flagged for a closer look

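The knockout effect differed between stimulated and fresh cells for 3 of the 31 genes of receptor signalling, by the interaction term of the edgeR fit. Of these, 1 was positive and 2 were negative. Among all genes tested, 2.26% were called, 0.698% positive and 1.56% negative. The list was chosen with earlier results of these data known, so the count is descriptive. Pik3r5 had a difference in log2 fold change of 0.455 (SE 0.09, edgeR adjusted p = 0.0193), Plcb2 of −0.303 (SE 0.07, edgeR adjusted p = 0.026) and Rgs3 of −0.625 (SE 0.10, edgeR adjusted p = 0.00771). The Pik3r5 call was lost without stimulated WT replicate 3, fresh KO replicate 1 or 3, or fresh WT replicate 2 (edgeR adjusted p from 0.0544 to 0.0651). The Plcb2 call was lost without the Y-linked libraries and without any one of 6 libraries, stimulated KO replicate 3, stimulated WT replicate 2, fresh KO replicate 2 or 3, or fresh WT replicate 2 or 3 (edgeR adjusted p from 0.0537 to 0.163). Rgs3 was called under every alternative run.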

How the results depend on the processing

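Over 45 pairs of receptor and comparison, 845 alternatives gave 785 values with the same direction and call, 29 that lost the call, 12 that gained it and 19 with the opposite sign, none of these in a called pair. The number of receptors called between fresh KO and fresh WT was 4 with DESeq2 against 2 in edgeR, and 0 to 2 leaving out 1 library. For the interaction it was 1 with DESeq2, 2 without the filter, 1 with sex as a covariate and 0 to 1 leaving out 1 library. Between stimulated KO and stimulated WT it was 2 to 4 leaving out 1 library. The causes were not tested. Signs turned, as log2 values, for Cxcr2 in stimulated KO against WT (−0.015 with limma-voom, −0.053 with sex as a covariate and without the Y-linked libraries, −0.056 to 0.114 leaving out 1 library) and Cxcr6 (−0.079 without the Y-linked libraries, −0.133 to 0.145). In fresh KO against WT they turned for Ccr8 (−0.204, and −0.301 to 0.308) and Cxcr4 (−0.020 to 0.252), in WT stimulation for Cxcr2 (0.041, and −0.184 to 0.042), and in the interaction for Ccr2 (−0.016, and −0.058 to 0.433) and Ccr8 (−0.103 to 0.703). Over all genes, fresh KO against WT gave 125 higher and 28 lower in edgeR, 223 and 103 with DESeq2, and 21 and 8 without fresh WT replicate 2. The interaction gave 89 and 199 in edgeR and 192 and 350 with DESeq2. Ccr8 rests on few reads per library. No paired analysis was possible because the groups compared share fewer than 2 numbers in the sample titles, and the replicate numbers used here only name libraries in listing order.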
